A study of Mus musculus with 10 samples.

Results

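The renin-angiotensin genes examined here are Agt, Ren1, Ace, Enpep, Anpep, Agtr1a, Agtr1b, Agtr2 and Mas1, chosen by name as the substrate, enzymes and receptors of the classical peptide cascade. A gene was read from the array probe sets annotated to its symbol alone, and the one with the highest mean over the 10 arrays stood for it. Of the 9 genes, 7 were measured this way, each by 1 probe set, among 19938 genes tested in all. No probe set carried the name Ren1 or Agtr1b in the annotation used, so those genes have no value here.

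Whole oviducts of PRKO mice, homozygous for a lacZ insertion that disrupts both isoforms of the progesterone receptor gene Pgr, were compared with those of PR+/- mice, which carry the insertion on one allele. The PR+/- animals are fertile, but they are not wild type, and every animal of the study carried at least one disrupted allele. Prepubertal females aged 21 to 23 days received 5 IU of equine chorionic gonadotropin (eCG), which stimulates follicle growth, followed 44 to 47 h later by an ovulatory dose (5 IU) of the human hormone (hCG). Tissue was collected at 8 h past the second injection. Every array holds RNA of 3 pooled animals, giving 5 PRKO and 5 PR+/- arrays from 15 animals per genotype. The comparison asks which renin-angiotensin transcripts differ in the oviduct when the progesterone receptor is missing. No array from before hCG was analysed here, so a difference present earlier cannot be told apart from one that arose after it.

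In the renin-angiotensin system, the protease renin cuts angiotensinogen, the product of Agt, to release angiotensin I, and angiotensin-converting enzyme (Ace) trims that peptide to angiotensin II. Aminopeptidase A (Enpep) shortens angiotensin II to angiotensin III, and aminopeptidase N (Anpep) shortens angiotensin III further. Angiotensin II acts through the type 1 receptor, which couples to Gq proteins and contracts smooth muscle, and through the type 2 receptor (Agtr2), which is abundant in fetal mesenchyme and in parts of the adult reproductive tract and often opposes the type 1 receptor. Rodents have separate type 1 receptor genes, Agtr1a and Agtr1b, and Mas1 encodes a receptor for shorter angiotensin peptides.

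Pgr itself had log2 signals of 6.39, 6.32, 6.31, 6.39 and 6.37 in PRKO replicates 1 to 5, against 7.55, 7.48, 7.43, 7.27 and 7.35 in PR+/- replicates 1 to 5. All PRKO values lay below all PR+/- values, which goes with the genotype labels (exact two-sided permutation p = 0.00794, the lowest value open to 252 arrangements). Oviduct epithelial markers were present in both genotypes, with a log2 signal of 7.05 ± 0.18 in PRKO and 7.16 ± 0.11 in PR+/- for the ciliated cell factor Foxj1 and of 8.50 ± 0.20 in PRKO and 8.51 ± 0.052 in PR+/- for the Müllerian factor Pax8 (SD, n = 5 each). The interquartile range of an array was 3.13 to 3.42 log2 units in PRKO and 3.37 to 3.48 in PR+/-. Of all genes, 217 rose and 771 fell in PRKO at a Benjamini-Hochberg adjusted p under 0.05 in limma, a linear model that shares variance information across genes, and the median log2 difference was 0.03.

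Of the 7 measured renin-angiotensin genes, Agtr2 and Anpep rose in PRKO oviducts, none fell and 5 did not pass the test. Agtr2 was 2.23-fold and Anpep 1.40-fold higher in PRKO. Of all tested genes, 1.09% rose and 3.87% fell by the same rule, or 4.96% in either direction, against 2 of 7 here. The rise of Agtr2 was known in advance, from earlier results of these data and from the study's publication, so the count is a description and not independent evidence. The median log2 difference of the 7 genes was 0.14. In tissue pools, more or fewer cells of a type and more or less RNA per cell cannot be told apart.

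**Figure D1:**
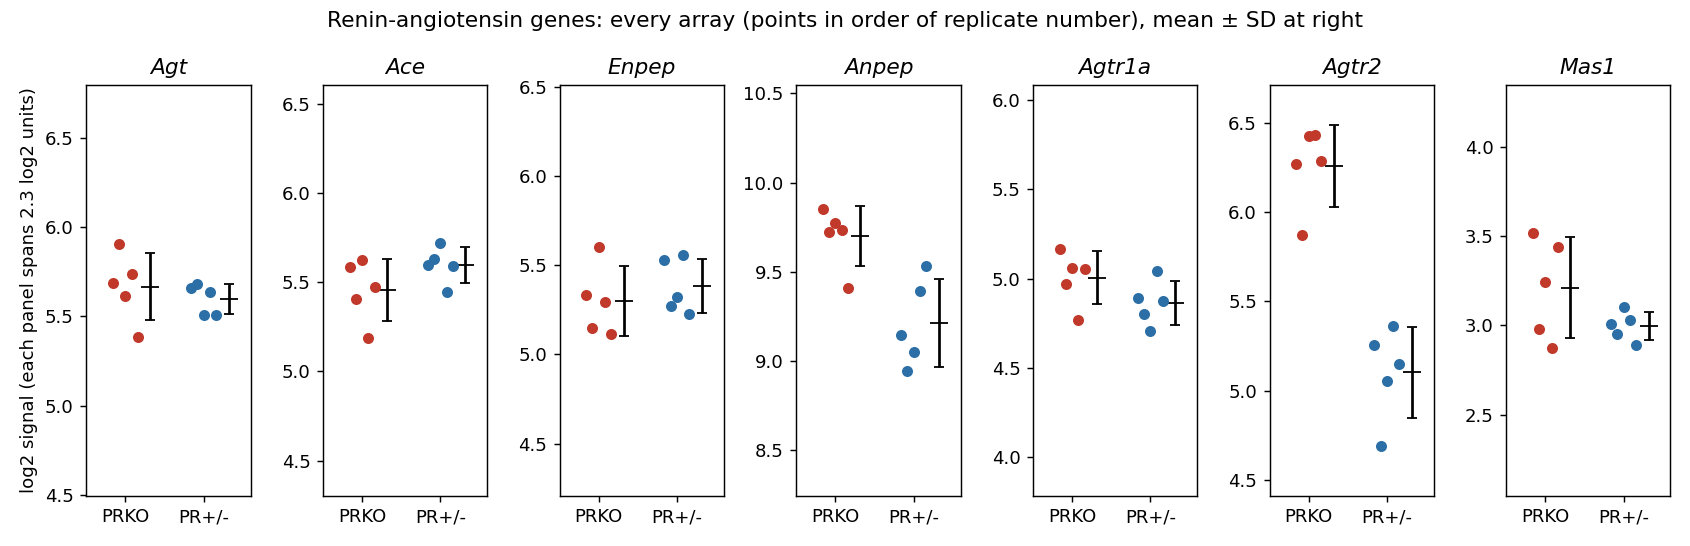
Log2 signal (vertical axis, of the same span in every panel) of the 7 measured genes on the 5 PRKO arrays (left, red) and the 5 PR+/- arrays (right, blue), with mean ± SD beside the points. Agtr2 is the gene whose genotypes do not overlap, Anpep overlaps through 1 PRKO array, and in the other 5 panels the points are intermixed.

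The promoters of the members that rose are shown because the genotypes differ in a DNA-binding receptor, and they differ widely from each other in base composition. Each window runs from 250 bases before to 50 bases after the start of the gene, from RefSeq on GRCm38.p6. Windows were found for 8 of the 9 genes. The letters searched on both strands were AGAACA, the unit bound by the progesterone and glucocorticoid receptors, its full palindrome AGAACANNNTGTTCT, AGGTCA, the unit bound by estrogen receptors, the TATA box letters TATAAA and TATATA, and the GC box letters GGGCGG. The second TATA form was added after the sequences had been read. Matches are in capitals.
Agtr2, chrX:21484374-21484673, plus strand: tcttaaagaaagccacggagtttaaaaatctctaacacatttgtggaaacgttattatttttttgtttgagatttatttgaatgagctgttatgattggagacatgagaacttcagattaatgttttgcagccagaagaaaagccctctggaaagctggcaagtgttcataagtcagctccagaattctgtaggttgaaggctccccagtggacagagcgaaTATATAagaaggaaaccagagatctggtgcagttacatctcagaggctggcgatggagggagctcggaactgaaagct
Anpep, chr7:79848161-79848460, minus strand: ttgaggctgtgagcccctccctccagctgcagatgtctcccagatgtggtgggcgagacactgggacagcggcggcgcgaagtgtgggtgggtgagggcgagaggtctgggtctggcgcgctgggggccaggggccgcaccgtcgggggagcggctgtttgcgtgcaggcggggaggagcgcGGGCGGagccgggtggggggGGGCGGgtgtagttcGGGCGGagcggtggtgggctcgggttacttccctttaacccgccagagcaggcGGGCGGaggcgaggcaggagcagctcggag

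The Agtr2 window was AT-rich, with 41.3% G and C, and 12.8% of the 32851 promoter windows of the same length had less. It held TATATA, which reads the same on both strands, starting 28 bases before the gene's start, letters found in 5.67% of all windows. The Anpep window held 72.3% G and C, more than 93.5% of windows, and GGGCGG 4 times on the strand as printed, letters found in 35.7% of all windows. AGAACA, found in 19% of all windows, its palindrome, found in 3 of 32851, and AGGTCA, found in 16.3%, were in neither window. These are letter matches within 300 bases and say nothing of receptor binding there or elsewhere.

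The angiotensin II type 2 receptor gene Agtr2, on chromosome X, showed the largest difference of the measured members. Its log2 signal was 6.27, 5.87, 6.43, 6.43 and 6.29 in PRKO replicates 1 to 5, against 5.25, 4.69, 5.05, 5.36 and 5.15 in PR+/- replicates 1 to 5. The lowest PRKO array, replicate 2, lay above the highest PR+/- array, replicate 4, so the genotypes did not overlap, as was the case for 7.20% of all genes tested. Replicate 2 was the lowest array of its genotype in both groups. Agtr2 averaged 6.26 ± 0.23 in PRKO and 5.10 ± 0.26 in PR+/- (SD, n = 5 each). The log2 difference was 1.16 ± 0.13 (SE), with a 95% interval of 0.87 to 1.44, which corresponds to 1.83-fold to 2.71-fold (limma adjusted p = 9.94e-05). Only 2 of the 19938 genes had a larger rise.

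The type 1 receptor gene Agtr1a, on chromosome 13, did not pass the test. Its log2 signal was 5.16, 4.97, 5.06, 4.77 and 5.06 in PRKO replicates 1 to 5, against 4.89, 4.80, 4.71, 5.04 and 4.87 in PR+/- replicates 1 to 5. The groups overlapped, with PR+/- replicate 4 above 2 of the PRKO arrays. Agtr1a averaged 5.00 ± 0.15 in PRKO and 4.86 ± 0.13 in PR+/- (SD, n = 5 each), a log2 difference of 0.14 with a 95% interval of -0.05 to 0.33 (limma adjusted p = 0.382). Rises above 1.26-fold lie outside that interval.

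Whether the receptor genes Agtr2 and Agtr1a differed by unequal amounts was tested within arrays, where any shift shared by all probe sets cancels. Agtr2 minus Agtr1a was 1.11, 0.90, 1.37, 1.67 and 1.23 log2 units in PRKO replicates 1 to 5, against 0.36, -0.11, 0.35, 0.32 and 0.27 in PR+/- replicates 1 to 5. Every PRKO value was above every PR+/- value. The mean was 1.25 ± 0.29 in PRKO and 0.24 ± 0.20 in PR+/- (SD, n = 5 each), a difference of 1.02 (exact two-sided permutation p = 0.00794, again the lowest possible). The offset between these probe sets on an array has no meaning as a ratio of receptor abundance, since probe sets differ in brightness. Because Agtr2 was chosen with its rise known, this p describes an unequal change and is not independent evidence for it.

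**Figure D2:**
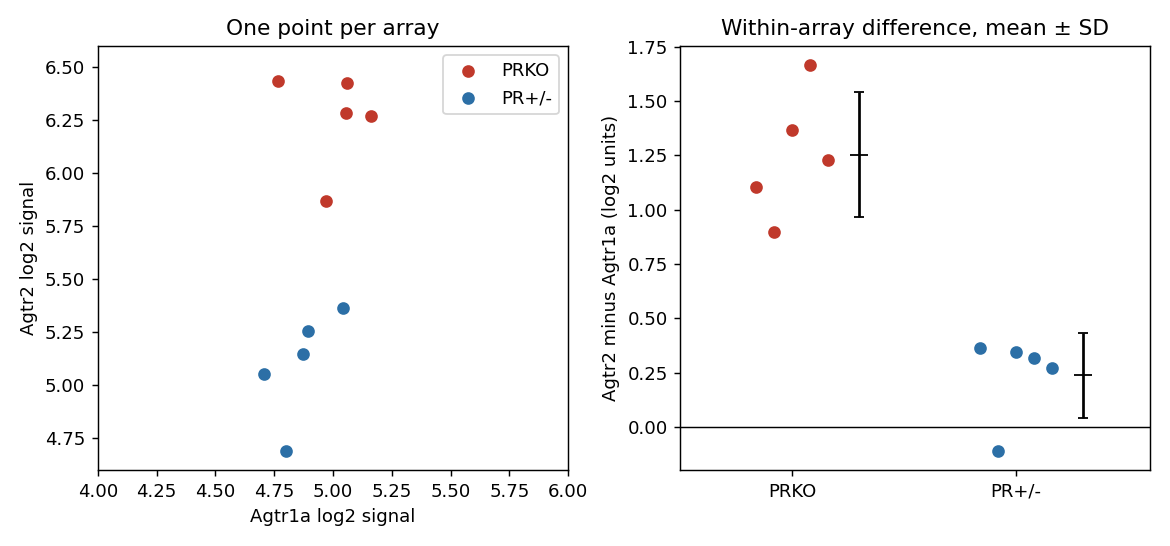
Left, Agtr2 log2 signal (vertical axis) against Agtr1a log2 signal (horizontal axis), with 1 point per array, PRKO in red and PR+/- in blue. Right, the within-array difference of the receptor genes in log2 units with mean ± SD: the PRKO values of 0.90 to 1.67 lie above the PR+/- values of -0.11 to 0.36, while the Agtr1a values of the genotypes span a common range.

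Mas1, on chromosome 17, had the dimmest signal of the measured members. It was 2.87 at the lowest, 3.25 at the median and 3.52 at the highest in PRKO, against 2.89, 3.01 and 3.10 in PR+/-. The table gives no detection calls, so the 1194 olfactory and vomeronasal receptor genes on the array, taken as genes largely silent in this tissue, served as a guide to low signal. The middle 90% of their means lay between 2.04 and 4.09, and Mas1, with a mean of 3.10 over all arrays, fell inside that range while the other 6 members lay above it. The log2 difference of Mas1 was 0.21 with a 95% interval of -0.03 to 0.46 (limma adjusted p = 0.302), and a level this low may not be measured at all. The spread of Mas1 was 0.28 in PRKO and 0.079 in PR+/- (SD, n = 5 each).

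Anpep, the gene of the membrane aminopeptidase that removes the first residue of angiotensin III and of many other peptides, lies on chromosome 7 and was the second member that rose. Its log2 signal was 9.85, 9.72, 9.78, 9.74 and 9.41 in PRKO replicates 1 to 5, against 9.15, 8.94, 9.05, 9.40 and 9.53 in PR+/- replicates 1 to 5. The first 4 PRKO arrays lay above all PR+/- arrays, while PRKO replicate 5 lay below PR+/- replicate 5, so the genotypes overlapped. Anpep averaged 9.70 ± 0.17 in PRKO and 9.21 ± 0.24 in PR+/- (SD, n = 5 each), a log2 difference of 0.49 ± 0.12 (SE) with a 95% interval of 0.24 to 0.74, or 1.18-fold to 1.67-fold (limma adjusted p = 0.0270). Among the 217 genes that rose, 46 rose more and 170 less. The call depended on single arrays. The adjusted p was 0.0559 without PRKO replicate 1, 0.0632 without PRKO replicate 3, 0.0734 without PR+/- replicate 1, 0.0789 without PR+/- replicate 2 and 0.0744 without PR+/- replicate 3, with log2 differences of 0.42 to 0.47. The call was also lost, at an adjusted p of 0.170 and a log2 difference of 0.52, with the interquartile range of each array as a covariate. That range was mostly lower in PRKO, so the covariate partly follows genotype, and the SE in that fit was 0.16.

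**Figure D3:**
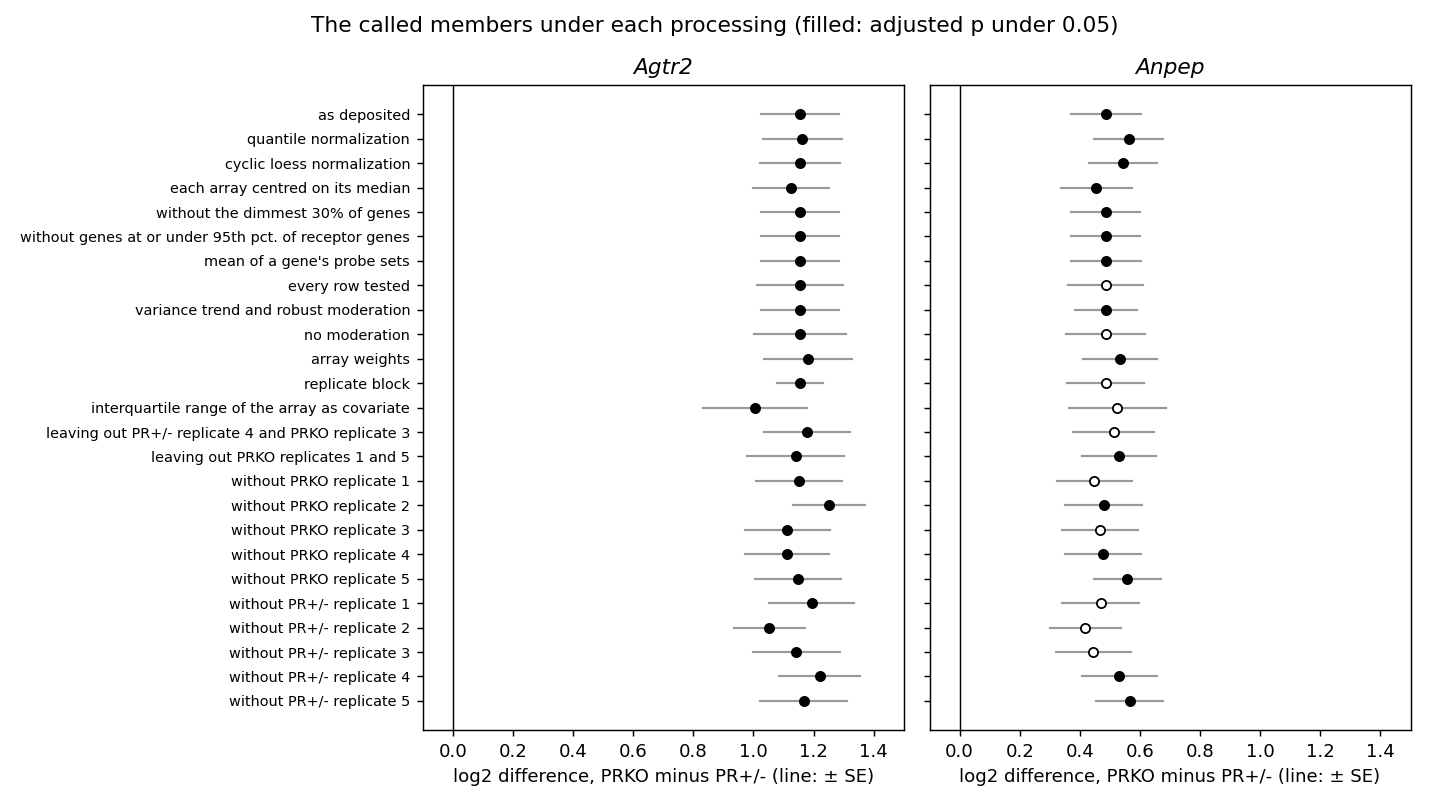
Log2 difference, PRKO minus PR+/- (horizontal axis, line ± SE), of Agtr2 (left) and Anpep (right) in the values as deposited and under 24 other settings (rows), with filled points at an adjusted p under 0.05. Agtr2 stays between 1.01 and 1.25 with all points filled, and Anpep between 0.42 and 0.57 with 10 of the 24 alternatives open.

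The other aminopeptidase gene, Enpep, whose product converts angiotensin II to angiotensin III, lies on chromosome 3 and did not pass the test. Its log2 signal was 5.12 at the lowest, 5.30 at the median and 5.60 at the highest in PRKO, against 5.23, 5.32 and 5.56 in PR+/-. The mean was 5.30 ± 0.19 in PRKO and 5.38 ± 0.15 in PR+/- (SD, n = 5 each), and the log2 difference of -0.08 had a 95% interval of -0.30 to 0.14 (limma adjusted p = 0.664). The genotypes spanned much the same range.

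Upstream in the cascade, neither Agt, on chromosome 8, nor Ace, on chromosome 11, passed the test. Agt, the gene of the precursor from which all angiotensins are cut, had a log2 signal of 5.39 at the lowest, 5.69 at the median and 5.90 at the highest in PRKO, against 5.51, 5.64 and 5.68 in PR+/-. Its log2 difference was 0.07 with a 95% interval of -0.13 to 0.27 (limma adjusted p = 0.697). The lowest and the highest arrays were both PRKO, and the SD was 0.19 in PRKO and 0.083 in PR+/-.

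Ace, the converting enzyme of endothelium and some epithelia, had a log2 signal of 5.19 at the lowest, 5.47 at the median and 5.63 at the highest in PRKO, against 5.45, 5.59 and 5.72 in PR+/-. Its log2 difference of -0.14 had a 95% interval of -0.33 to 0.05 (limma adjusted p = 0.390). Ratios below 0.793 lie outside that interval. With 5 arrays a genotype, the unadjusted 95% interval of the median gene reached 0.20 log2 units to either side of its difference.

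Among the other genes of the pathway, no increase passed the test in the 57 measured, while 5 fell and 52 stayed below the threshold. Thus 8.77% were called, against 4.96% of all genes. The 5 include Rgs2 and Zbtb16, which were listed with their falls already known from these data. The share is therefore a description and not evidence of an excess in the pathway. The median log2 difference was -0.06. At an unadjusted p under 0.05, 2007 of all genes were higher and 2208 lower in PRKO. The lists hold 64 genes, of which 7 had no probe set annotated to their symbol alone.

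None of the 12 other peptidases that make or trim angiotensins passed the test, with log2 differences of -0.14 to 0.42. Mme, the membrane endopeptidase neprilysin, which cuts angiotensin I to shorter peptides, had a log2 signal of 8.60 ± 0.12 in PRKO and 8.38 ± 0.074 in PR+/- (SD, n = 5 each) and a log2 difference of 0.22 (limma adjusted p = 0.119). The largest value was that of Ctsg, the granule protease cathepsin G, at 0.42 (limma adjusted p = 0.0583), whose means of 3.48 in PRKO and 3.06 in PR+/- lay inside the range of the olfactory and vomeronasal receptor genes. Its adjusted p was 0.0242 without PRKO replicate 2 and 0.0269 without PRKO replicate 4. Cma1 and Cpa3, the mast cell proteases chymase and carboxypeptidase A3, averaged 3.10 and 3.08 in PRKO and 2.99 and 3.15 in PR+/-, also inside that range. Of the remaining receptors and renin-binding proteins, Atp6ap2, the prorenin receptor, had a log2 difference of -0.11 (limma adjusted p = 0.426), and the receptor genes Mrgprd and Mrgprg had values of 0.08 and 0.00.

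Of 12 genes for partners and desensitisers of angiotensin receptors, 3 fell, none rose and 9 did not pass, with a median of -0.09. By the same rule, 3.87% of all genes fell and 1.09% rose. Rgs2, which speeds the shut-off of Gq proteins and so shortens type 1 receptor signalling, had log2 signals of 6.47, 6.74, 7.05, 6.89 and 6.68 in PRKO replicates 1 to 5, against 8.33, 8.29, 8.43, 8.62 and 8.56 in PR+/- replicates 1 to 5. The highest PRKO value, in replicate 3, was well below the lowest PR+/- value, in replicate 2. Zbtb16, a transcription factor (PLZF) reported to bind the type 2 receptor, had 6.19, 5.62, 6.48, 6.03 and 6.40 in PRKO replicates 1 to 5, against 7.87, 7.93, 7.93, 7.90 and 8.02 in PR+/- replicates 1 to 5. Their log2 differences were -1.68 ± 0.11 and -1.79 ± 0.13 (SE), with limma adjusted p of 6.76e-07 and 1.53e-06. No PRKO value of either gene reached the PR+/- range, and both falls were known from earlier results of these data.

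Rgs5, another Gq regulator, abundant in pericytes, fell 1.40-fold (log2 -0.48 ± 0.11 SE, limma adjusted p = 0.0166), at 5.54 ± 0.18 in PRKO and 6.03 ± 0.18 in PR+/- (SD, n = 5 each). The genotypes did not overlap. The call was lost without PR+/- replicate 1 (log2 -0.46, adjusted p = 0.0525), with every row of the table tested (adjusted p = 0.0531), without variance moderation (adjusted p = 0.0704) and with each array's interquartile range in the fit (log2 -0.60, adjusted p = 0.0556). Mtus1, which encodes a protein that binds the type 2 receptor, and Agtrap, which encodes one that promotes internalisation of the type 1 receptor, had log2 differences of -0.01 and -0.04 (limma adjusted p = 0.969 and 0.846). The arrestin genes Arrb1 and Arrb2 had values of -0.10 and -0.08. Dusp1, a phosphatase of MAP kinases, had a log2 difference of -0.31 (limma adjusted p = 0.347), which was -0.49 (adjusted p = 0.0396) without PRKO replicate 1.

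Of 16 measured genes of Gq and calcium signalling, 1 fell (6.25%, against 3.87% of all genes) and 15 did not pass, with a median of -0.15. A single call is not read as a change of the list. Plcb1, a phospholipase C that Gq activates, had log2 signals of 6.33, 6.12, 6.48, 6.38 and 5.83 in PRKO replicates 1 to 5, against 6.87, 6.89, 6.96, 6.84 and 6.83 in PR+/- replicates 1 to 5. The genotypes did not overlap, and Plcb1 was 1.57-fold lower in PRKO (log2 -0.65 ± 0.11 SE, limma adjusted p = 0.00225). With the interquartile range of each array as a covariate its log2 difference was -0.50 (adjusted p = 0.102). All 8 smooth muscle markers also fell in PRKO, as did 3 of 8 pericyte markers, of which Rgs5 is one. The other 5 pericyte markers did not pass, with log2 differences of -0.32 to 0.16. The part of smooth muscle and pericytes in the falls of Plcb1, Rgs2 and Rgs5 was not tested. The G protein genes Gnaq and Gna11 had log2 differences of -0.15 and -0.33 (limma adjusted p = 0.259 and 0.123), and for Gna11 the adjusted p was 0.0451 without PRKO replicate 1. Prkca, a protein kinase C gene, had a log2 difference of -0.31 (limma adjusted p = 0.131), and its adjusted p was 0.0406 without PRKO replicate 2.

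**Figure D4:**
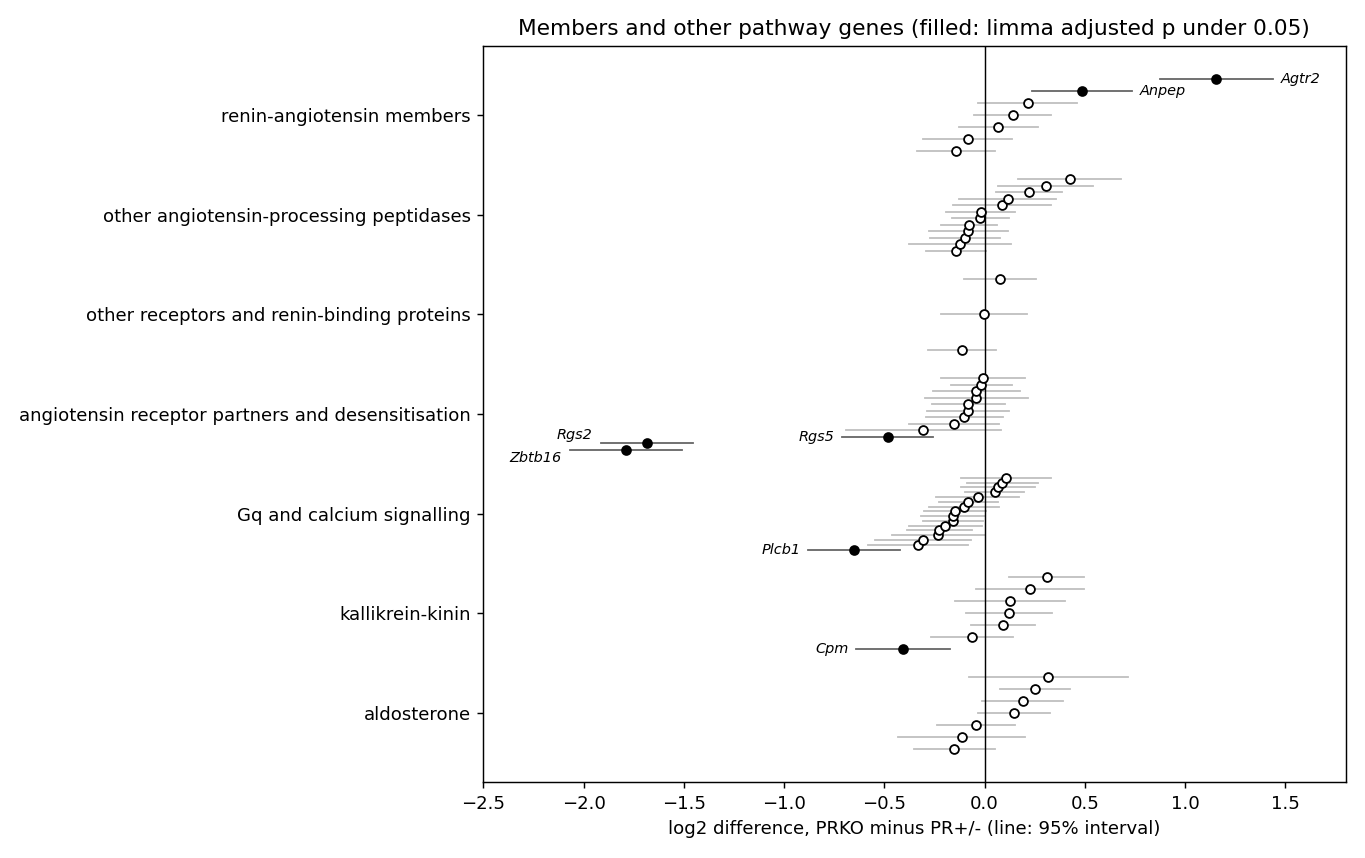
Log2 difference, PRKO minus PR+/- (horizontal axis), of the 7 measured members and the 57 other pathway genes, 1 point per gene with its 95% interval, grouped by list (rows) and filled at a limma adjusted p under 0.05. Agtr2 and Anpep are the filled points right of 0, and Zbtb16, Rgs2, Plcb1, Rgs5 and Cpm those left of 0.

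Kinins share enzymes with angiotensins, since Ace also inactivates bradykinin. Of 7 measured kallikrein-kinin genes, 1 fell and 6 did not pass, where 3.87% of all genes fell. With 1 call, the list is not read as changed. Cpm, a membrane carboxypeptidase that trims kinins, was 1.32-fold lower (log2 -0.41 ± 0.11 SE, limma adjusted p = 0.0476), at 4.54 ± 0.19 in PRKO and 4.94 ± 0.19 in PR+/- (SD, n = 5 each). That call was lost, at adjusted p of 0.0617 to 0.121, when any of PRKO replicates 1, 3 and 5 or PR+/- replicates 1, 2, 4 and 5 was left out, and the log2 difference was -0.18 (adjusted p = 0.580) when each array's spread entered the fit. The bradykinin receptor genes Bdkrb1 and Bdkrb2 had log2 differences of -0.06 and 0.23 (limma adjusted p = 0.745 and 0.313). Kng1, the kininogen gene, had a log2 difference of 0.31 (limma adjusted p = 0.0580) at means of 3.61 in PRKO and 3.30 in PR+/-, inside the range of the olfactory and vomeronasal receptor genes, and its adjusted p was 0.0278 without PRKO replicate 4. None of the 7 aldosterone genes passed, and Nr3c2, the mineralocorticoid receptor gene, had a log2 difference of 0.15 (limma adjusted p = 0.326).

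Markers of the cell types that whole oviducts could hold were set beside the members. By the same rule, 3.87% of all genes fell and 1.09% rose. All 8 smooth muscle markers fell, and their summed linear signal was 5354 to 6761 in PRKO against 9529 to 10590 in PR+/-. Of 8 pericyte markers, 3 fell (Kcnj8, Abcc9 and Rgs5), with sums of 593 to 680 in PRKO against 851 to 1051 in PR+/-. The gap between these sums comes mostly from Abcc9 and Kcnj8. Abcc9 averaged 7.49 in PRKO and 8.35 in PR+/-, and Kcnj8 averaged 6.44 in PRKO and 7.88 in PR+/-. The median log2 difference of the pericyte list was -0.16. The other 5 pericyte markers did not pass, with log2 differences of 0.01 for Cspg4, 0.16 for Notch3, 0.00 for Higd1b, 0.14 for Ndufa4l2 and -0.32 for Pdgfrb. Of 8 fibroblast markers, 1 fell (Pdgfra), with sums of 6265 to 7187 in PRKO against 6828 to 7833 in PR+/-. No marker of these lists rose, and the part of cell composition in the rise of Agtr2 and Anpep was not tested.

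The counts for the next lists also stand beside 3.87% of all genes that fell and 1.09% that rose. A list with 1 call is not read as a change of that cell type. Of 9 endothelial markers, 2 fell (Emcn and Pecam1), with sums of 634 to 778 in PRKO against 763 to 811 in PR+/-. Of 5 mesothelial markers, 1 fell (Msln), with sums of 1171 to 1473 in PRKO against 1432 to 1603 in PR+/-, and of 7 secretory epithelial markers, 1 fell (Krt19), with sums of 3597 to 4865 in PRKO against 4522 to 5259 in PR+/-. The secretory sums are weighted to Krt19, the brightest gene of that list, which averaged 10.62 in PRKO and 11.02 in PR+/-. The median log2 difference of the secretory list was -0.01. None of the 8 multiciliated, 8 macrophage, 7 adipocyte, 9 ovarian and 9 cumulus and oocyte markers measured passed. Macrophage sums were 596 to 725 in PRKO against 556 to 633 in PR+/-, multiciliated sums 1861 to 2070 in PRKO against 1731 to 2196 in PR+/-, and adipocyte sums 148 to 163 in PRKO against 149 to 154 in PR+/-. The adipocyte-defining gene Adipoq averaged 2.79 in PRKO and 2.60 in PR+/-, inside the range of the olfactory and vomeronasal receptor genes. Of 7 mast cell genes, Kit rose and Hdc fell, and the median log2 difference was 0.07. Their summed signal of 1492 to 1873 in PRKO against 2505 to 2675 in PR+/- is mostly that of Hdc, whose log2 signal averaged 10.34 in PRKO and 11.14 in PR+/-. The mean log2 signal of the 7 genes was 5.04 to 5.13 in PRKO and 5.04 to 5.13 in PR+/-, and the mast cell-restricted Ms4a2 averaged 2.56 in PRKO and 2.49 in PR+/-.

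Ovarian sums spanned 165 to 516 in PRKO and 167 to 488 in PR+/-, and cumulus and oocyte sums 138 to 226 in PRKO and 144 to 215 in PR+/-. The only red cell gene measured, Alas2, did not pass. Cyp11a1, which starts steroid synthesis in the ovary, stood apart at 7.10 in PRKO replicate 3 and 7.04 in PR+/- replicate 4, against at most 4.68 on the other PRKO arrays and 3.92 on the other PR+/- arrays. Without both arrays, the log2 difference of Agtr2 was 1.18 (limma adjusted p = 5.16e-04) and that of Anpep 0.51, at which its call was lost (limma adjusted p = 0.0691).

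Array-to-array variation within genotypes was used to find genes that moved like the called members, by the correlation of deviations from the genotype means over the 10 arrays. For Agtr2 the highest values were those of Stap1 (r = 0.902), Pax9 (0.899), Nkx2-2 (0.891), Szrd1 (0.885) and Col22a1 (0.884). None of the 5 passed the genotype test, with log2 differences from 0.00 to 0.24, and Stap1 and Pax9 lay inside the range of the olfactory and vomeronasal receptor genes. For Anpep they were Dntt (0.944), Nrgn (0.937), Oprd1 (0.91), Commd3 (0.896) and Ccnb1ip1 (0.896), none of which passed, and Dntt and Ccnb1ip1 lay inside that range. Predicted loci, olfactory and vomeronasal receptor genes and small RNA genes were left out of this ranking. The correlations are the highest of a genome-wide ranking over arrays that share processing, and they are given as a description.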

How the data were processed

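Biotinylated cRNA was made from total RNA with an Affymetrix whole-transcript kit and hybridised to arrays, per the labels' protocols. The authors deposited log2 values, 1 per probe set and array, and the submitters' processing notes name Partek. Which version, background correction, normalization and probe summary were used is not given here by any source. The log2 scale was inferred from the values, which lie between 1.09 and 13.6. Array medians were 5.20 to 5.28, and no further normalization was applied in the main fit. Similar medians do not show that the arrays share a spread. Interquartile ranges were 3.13 to 3.42 in PRKO and 3.37 to 3.48 in PR+/-. Of 35557 rows, 21789 carried 1 gene symbol, 1621 several and 12147 none in the platform annotation used, and rows of the other kinds stood for no gene. Names were checked by gene ID against RefSeq genes of GRCm38.p6, with 21698 rows matched and 0 changed. The arrays' number limits the precision.

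All genes entered one fit in limma 3.58.1 (R 4.3.3), PRKO minus PR+/-, with 8 residual and 6.08 prior degrees of freedom over 19938 genes, Benjamini-Hochberg adjustment and a threshold of 0.05. Pgr and the within-array receptor difference were also tested by exact permutation over arrays. The procedure was tested on simulated data with independent normal noise of the same spread in both genotypes. That setting is simpler than these arrays, so it does not give the error rate here. The p-values rest on how pools of animals vary. The members and lists were chosen with earlier results of these data known. Named genes are the members, Pgr, up to 4 called genes per list by smallest p and the 5 genes most like each called member. List genes named without a call were chosen after their values were seen. Same-numbered replicates had correlated deviations of -0.013 to 0.159, and because the value of replicate 3 was below 0.1, the numbers were not taken to pair the arrays. Alternatives covered the normalization, filters on dim genes, array weights, moderation, a replicate block, the interquartile range as covariate and arrays left out.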

Additional observations from a re-analysis of the deposited data

Results flagged for a closer look

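Among 28 groups of 5 arrays examined, 4 held an array whose gap to its nearest neighbour exceeded 0.71 of the group's range, which chance gives in about 1 group in 20. Agtr2 was 5.87 in PRKO replicate 2, below the other PRKO arrays, and leaving that array out gave a log2 difference of 1.25. Anpep was 9.41 in PRKO replicate 5, below the other PRKO arrays, and its log2 difference was 0.56 without it (limma adjusted p = 0.0135). Agtr2 minus Agtr1a was -0.11 in PR+/- replicate 2, below the other PR+/- arrays, and the genotype difference was 0.93 without it. Cpm was 4.21 in PRKO replicate 5, below the other PRKO arrays, and its log2 difference was -0.32 without it.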

How the results depend on the processing

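The rise of Agtr2 passed the threshold in all 24 alternatives (log2 difference 1.01 to 1.25, adjusted p at most 0.0103), and the fall of Pgr did so too (-1.10 to -1.02). Agtr2 minus Agtr1a kept its direction and its side of the threshold in all 16 run (0.91 to 1.10). Its permutation p had little room to change with arrays left out, since the genotypes do not overlap. Centring each array cancels in a within-array difference, and averaging probe sets changes nothing where a gene has 1. Anpep passed in 14 of 24 (0.42 to 0.57). Members that rose numbered 1, Agtr2, against 2 with every row tested, without moderation, with the interquartile range as covariate, without PR+/- replicate 4 and PRKO replicate 3 together, and with the replicate block, where the log2 difference of Agtr2 was 1.16 and that of Anpep 0.49 (adjusted p = 0.0597). In that fit Gna11 passed (log2 -0.33, adjusted p = 0.0367) and Cpm did not (-0.41, adjusted p = 0.0522). With single arrays left out, 1 to 2 members rose and 0 fell. Ace, Agt, Agtr1a, Enpep and Mas1 passed in none.

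Pathway genes that fell numbered 3 with every row tested, 3 without moderation and 2 with the covariate, against 5, and 3 to 6 with single arrays left out. Those that rose numbered 2 with array weights (Ctsg and Kng1) and 0 to 2 with single arrays left out. Over all genes, 217 rises became 142 with arrays centred on their medians, 74 with every row tested, 129 without moderation, 58 with the covariate, 73 without PR+/- replicate 4 and PRKO replicate 3 and 141 without PRKO replicates 1 and 5. The 771 falls became 487, 264 and 489 with every row tested, the covariate, and without PR+/- replicate 4 and PRKO replicate 3. With single arrays left out, 84 to 330 genes rose and 497 to 882 fell. Fits that leave out arrays have fewer samples, the interquartile range covariate partly follows genotype, and otherwise the cause was not tested. The table holds no background values, so low signals have no detection limit.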
